A study of Mus musculus with 9 samples.

Results

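Fc receptors are proteins at the cell surface or inside the cell that bind the constant part of antibodies. Mouse genes for such receptors and for the signaling chain that several of them share, 6 in all, were followed here in myeloid cells of dystrophic muscle. They were found by symbol: *Fcgr1*, *Fcgr3*, *Fcgr4*, *Fcgr2b*, *Fcer1g*, and *Fcgrt*. These were 6 of the 50559 genes counted, and all 6 were among the 16618 genes left by the low-count filter. The libraries came from *mdx* mice, which lack dystrophin and model Duchenne muscular dystrophy, and every group carried that mutation, so that no healthy muscle was compared. Mice of both sexes received drinking water for 7 days with vehicle, with spironolactone, a mineralocorticoid receptor antagonist, or with prednisolone, a glucocorticoid receptor agonist, and were 4.5 weeks old when quadriceps were taken. Each group had 3 libraries, and each library held CD45+CD11b+ cells sorted from the pooled quadriceps of 3 mice. Live and dead cells were not separated in the sort. The study's methods give the sexes of the mice by group and not by pool, with fewer males in the prednisolone group than in the others, so that sex may differ between pools and its part in the values was not tested. The *P* values below measure the spread between pools.

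FcγRI (CD64, *Fcgr1*), FcγRIII (*Fcgr3*), and FcγRIV (*Fcgr4*) are activating receptors for IgG, and each needs the common γ chain, encoded by *Fcer1g*, to reach the surface and to signal. FcγRIIb (*Fcgr2b*) carries an inhibitory tyrosine motif of its own and dampens signals from the activating receptors, so that the balance between both kinds sets how macrophages, monocytes, and neutrophils respond to immune complexes. The neonatal receptor FcRn (*Fcgrt*) works inside the cell, where it binds IgG and albumin in endosomes and returns them from degradation.

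*Fcgr2b* (chr1:170786186-170804177, minus strand), *Fcgr4* (chr1:170846466-170857330, plus strand), *Fcgr3* (chr1:170878738-170893549, minus strand), and *Fcer1g* (chr1:171057141-171062219, minus strand) lie near each other on chromosome 1. *Fcgr1* (chr3:96190225-96201338, minus strand) and *Fcgrt* (chr7:44742412-44756819, minus strand) lie elsewhere. These are whole-gene positions in the GENCODE annotation of GRCm39, the build of the counts. *Fcgr2b* and *Fcgr3* are alike in sequence. Proteins translated from their main coding sequences were 67.2% identical over 265 aligned residues, against 47.6% over 248 for *Fcgr3* and *Fcgr4*. The longest run of bases that both coding sequences share is printed because a read that falls wholly inside it fits either gene, and a counter that drops such reads would miss them in both. It spans bases 278 to 406 of the 879 coding bases of *Fcgr2b* and bases 263 to 391 of the 801 of *Fcgr3*, and holds no base in capitals because no part was singled out.
Fcgr2b and Fcgr3, shared coding stretch of 129 bases: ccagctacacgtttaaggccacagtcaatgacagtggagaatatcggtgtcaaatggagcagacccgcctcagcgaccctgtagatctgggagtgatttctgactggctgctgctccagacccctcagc
Of the 100-base windows along the main transcript, 6.93% of *Fcgr2b* and 3.04% of *Fcgr3* occurred in another gene as well, and 0 of the windows of *Fcgr1*, *Fcgr4*, *Fcer1g*, and *Fcgrt* did. With 50-base windows the shares were 13% and 11.1%, and again 0 for the others. These shares are not those of the pair alone. Ordered by the number of *Fcgr2b* windows shared, *Gm64270* and *Aldh1a2* came before *Fcgr3* at 100 bases, while *Fcgr3* came first at 50 bases. *Fcgr2b* also shares 355 exonic bases with a gene model on the opposite strand, *Gm38204*, which is 6.06% of its exon length. The strand setting of the counting was not given in the sources used here, so that reads of this pair cannot be told apart.

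To compare the receptors with each other, counts were divided by exon length and expressed as TPM. *Fcer1g* was by far the most abundant, with a mean of 5127 TPM over the 9 libraries, which placed it at rank 19 of 40303 genes with a length. *Fcgr3* followed at 943 TPM (rank 144), then *Fcgr1* at 518 (rank 277), *Fcgr4* at 363 (rank 405), *Fcgr2b* at 263 (rank 565), and *Fcgrt* at 95.4 (rank 1644). This order was found in all 9 libraries. Neighbors in it were not equally distinct: *Fcgr4* lay above *Fcgr2b* without overlap in vehicle (305 to 366 against 216 to 289 TPM) and in spironolactone (379 to 476 against 221 to 325 TPM), while the prednisolone libraries overlapped (260.2 to 445 against 215 to 312 TPM). *Fcgr1* and *Fcgr4* overlapped in prednisolone as well, at 322 to 527 against 260.2 to 445 TPM. The place of *Fcgr2b* depended on the length used. With the length of the main transcript in place of all exons, an alternative chosen after seeing the data, *Fcgr4* exceeded *Fcgr2b* in 1 library rather than in 9. With that length *Fcgr2b* also exceeded *Fcgr1* in prednisolone 2.

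**Figure D1:**
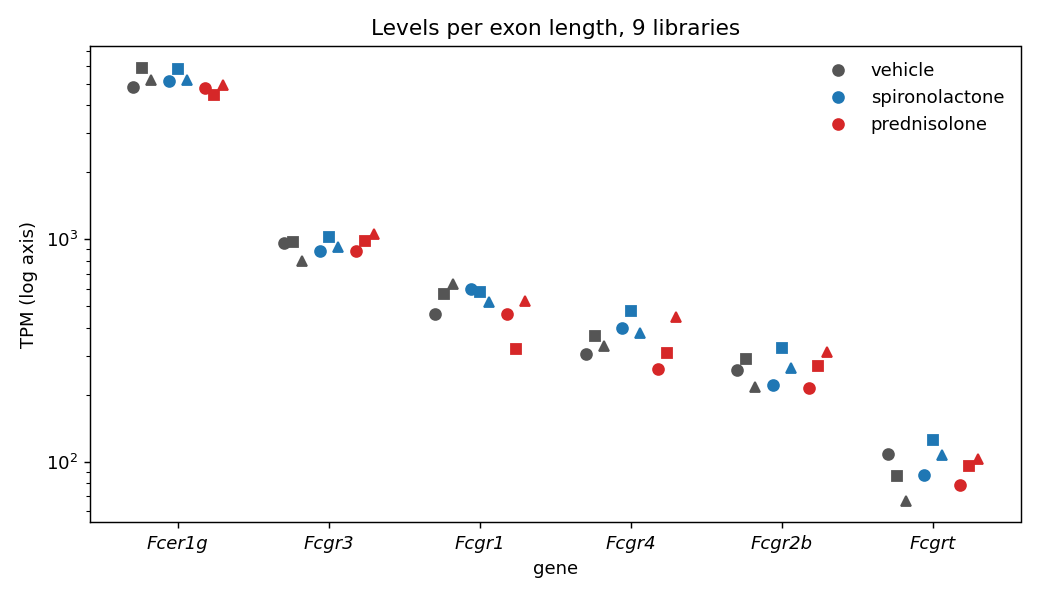
Level of each gene in TPM on a log axis, with 1 point per library, colored by group and shaped by replicate number (circle 1, square 2, triangle 3). *Fcer1g* lies above the other 5 genes in every library, and *Fcgrt* lies below them.

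The common γ chain outweighed the receptors that use it. *Fcer1g* made up 71.2% ± 1.34 (SD, *n* = 3) of the summed TPM of the 6 genes in vehicle, 70% ± 0.336 in spironolactone, and 69.2% ± 2.38 in prednisolone. Its level was 2.42 to 3.09 times the sum of its partners *Fcgr1*, *Fcgr3*, and *Fcgr4* across the 9 libraries. The γ chain is shared with other receptors, which are counted below. Its protein, with 86 residues, held the only match among the members to the activating motif with paired tyrosines (ITAM), at residues 65 to 79.

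None of the 6 genes passed the test in any comparison with the quasi-likelihood test of edgeR at an adjusted *P* of 0.05, and DESeq2 and limma-voom also gave 0 in each. For prednisolone against vehicle, 0 of 6 members were called where 1.76% of all genes tested were, and 2 had an unadjusted *P* under 0.05, a share to be read beside 14.2% of all genes. For spironolactone against vehicle, 0 were called by edgeR, where 0.0181% of all genes were, and 0 had an unadjusted *P* under 0.05 (9.29% of all genes). For spironolactone against prednisolone, 0 were called by edgeR (5.17% of all genes) and 3 had an unadjusted *P* under 0.05 (22.5% of all genes). The first 2 comparisons share the vehicle libraries, and each drug enters 2 comparisons. Over 18 intervals of a member in a comparison, the 95% bounds reached from -0.82 to 0.86 on the log2 scale, and 13 held 0. These results describe RNA from a mixture of cells, in which fewer cells of a type and less RNA per cell cannot be told apart.

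**Figure D2:**
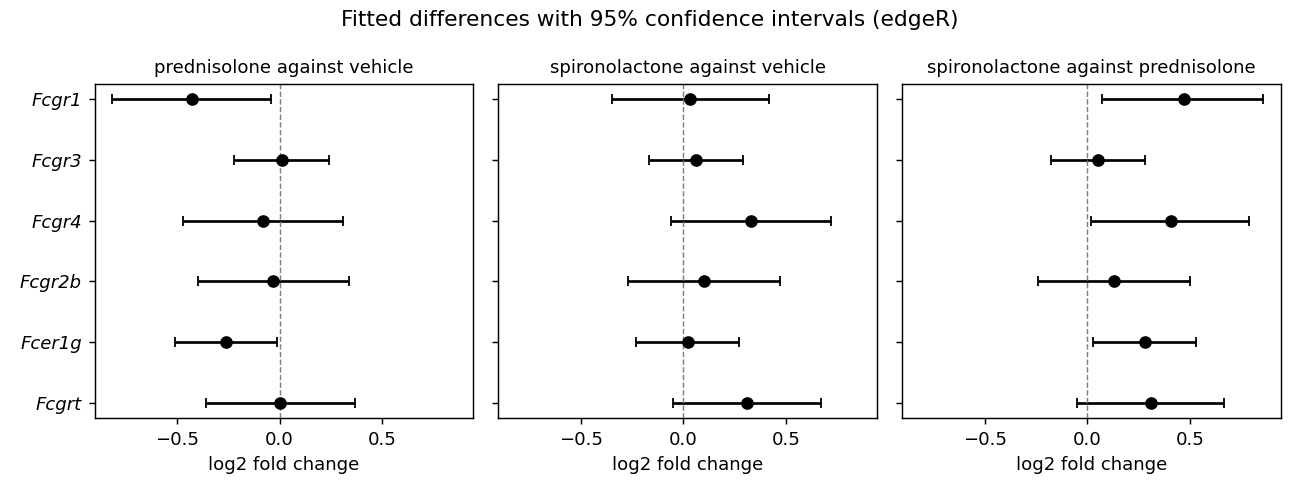
Log2 fold change (horizontal axis) of each gene with its 95% confidence interval from edgeR, in 3 comparisons. Intervals that leave out 0 are those of *Fcgr1* and *Fcer1g* in prednisolone against vehicle and of *Fcgr1*, *Fcgr4*, and *Fcer1g* in spironolactone against prednisolone, before adjustment over all genes.

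Of the activating receptors, *Fcgr1*, which binds monomeric IgG with high affinity and is known to be induced by interferon-γ, had the largest fitted differences with prednisolone. Normalized CPM were 344, 459.7, and 513 in the vehicle libraries and 453, 465, and 431 in the spironolactone libraries. The prednisolone libraries had 351, 235, and 391. Prednisolone 2 was the lowest of all, every prednisolone library lay below every spironolactone library, and the vehicle library at 344 lay among the prednisolone ones. The fitted log2 fold change was -0.43 ± 0.18 (SE) for prednisolone against vehicle (unadjusted *P* = 0.0334, adjusted *P* = 0.294) and 0.47 ± 0.18 for spironolactone against prednisolone (adjusted *P* = 0.149). Without 1 library the latter ran from 0.28 (without prednisolone 2) to 0.61 (without prednisolone 3), and none passed the test. Spironolactone and vehicle differed by 0.03 ± 0.18, with an interval from -0.35 to 0.42. Leaving out 1 library at a time gave -0.58 to -0.24 for prednisolone against vehicle, with no adjusted *P* below 0.0937. Without a filter on low counts the gene passed the test in prednisolone against vehicle (log2 fold change -0.41, adjusted *P* = 0.00959) and in spironolactone against prednisolone (0.45, adjusted *P* = 0.00216), and the cause was not tested.

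*Fcgr3*, a low-affinity receptor for immune complexes, was the steadiest member, with a coefficient of variation of 8.25% over the 9 libraries against 20.8% for *Fcgr1* and 20.7% for *Fcgr4*. Its CPM were 638, 699, and 578 in vehicle, 595, 732, and 668 in spironolactone, and 598, 633, and 696 in prednisolone. The 3 groups covered nearly the same range. Log2 fold changes were 0.01 ± 0.11 for prednisolone and 0.06 ± 0.11 for spironolactone against vehicle, with intervals of -0.22 to 0.24 and -0.17 to 0.29.

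*Fcgr4*, a receptor that binds IgG2a and IgG2b and is found on monocytes, macrophages, and neutrophils, had 83.4, 109, and 99.2 CPM in vehicle. Spironolactone libraries had 111, 140.5, and 114, all above the vehicle libraries. Prednisolone libraries had 72.6, 82.2, and 121, and the last of these lay within the spironolactone range. It was the only 1 of the 6 members whose groups did not overlap for spironolactone against vehicle, where 13.5% of all genes did not overlap, and the log2 fold change of 0.33 ± 0.18 did not pass the test (adjusted *P* = 0.618). With 1 library left out it ran from 0.21 (without spironolactone 2) to 0.42 (without vehicle 2). Against prednisolone it was 0.41 ± 0.18 (adjusted *P* = 0.197). Leaving out 1 library at a time gave 0.26 (without prednisolone 1) to 0.65 (without prednisolone 3), and the last of these was the only one to pass the test (adjusted *P* = 0.0297). Without a low-count filter it also passed the test (0.39, adjusted *P* = 0.00905).

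*Fcgr2b*, the only inhibitory receptor of the family, had 324, 392, and 296 CPM in vehicle, 281, 439.6, and 363 in spironolactone, and 275, 329.5, and 388 in prednisolone. Libraries of all groups were interspersed. Log2 fold changes against vehicle were -0.03 ± 0.17 for prednisolone and 0.10 ± 0.17 for spironolactone, and their intervals of -0.40 to 0.34 and -0.27 to 0.47 leave room for moderate differences in either direction.

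*Fcer1g* had 1193, 1586, and 1410.5 CPM in vehicle, 1297, 1549, and 1408 in spironolactone, and 1211, 1077, and 1212 in prednisolone. All prednisolone libraries lay below all spironolactone libraries, and vehicle 1 lay among the prednisolone ones. The log2 fold change was -0.26 ± 0.12 for prednisolone against vehicle (unadjusted *P* = 0.0421, adjusted *P* = 0.325), 0.02 ± 0.12 for spironolactone against vehicle, and 0.28 ± 0.12 for spironolactone against prednisolone (adjusted *P* = 0.167). Leaving out 1 library at a time moved the first of these from -0.36 (without vehicle 1, adjusted *P* = 0.0655) to -0.16 (without vehicle 2, adjusted *P* = 0.717). With *Fcgr1*, this made 2 of 6 members without overlap between the drugs, where 30.3% of all genes had none. For prednisolone against vehicle, 0 of 6 members had groups without overlap, against 19.7% of all genes.

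*Fcgrt* had 113, 99, and 77.2 CPM in vehicle, 93.7, 142, and 124 in spironolactone, and 84.3, 98.6, and 108 in prednisolone. The groups overlapped in every comparison. Its log2 fold change was 0.00 ± 0.17 for prednisolone and 0.31 ± 0.17 for spironolactone against vehicle (adjusted *P* = 0.608), and 0.31 ± 0.17 between the drugs (adjusted *P* = 0.301). With 1 library left out, spironolactone against vehicle gave 0.17 (without vehicle 3 or spironolactone 2) to 0.46 (without spironolactone 1). Between the drugs the values ran from 0.17 (without spironolactone 2) to 0.46 (without spironolactone 1), and none passed the test.

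**Figure D3:**
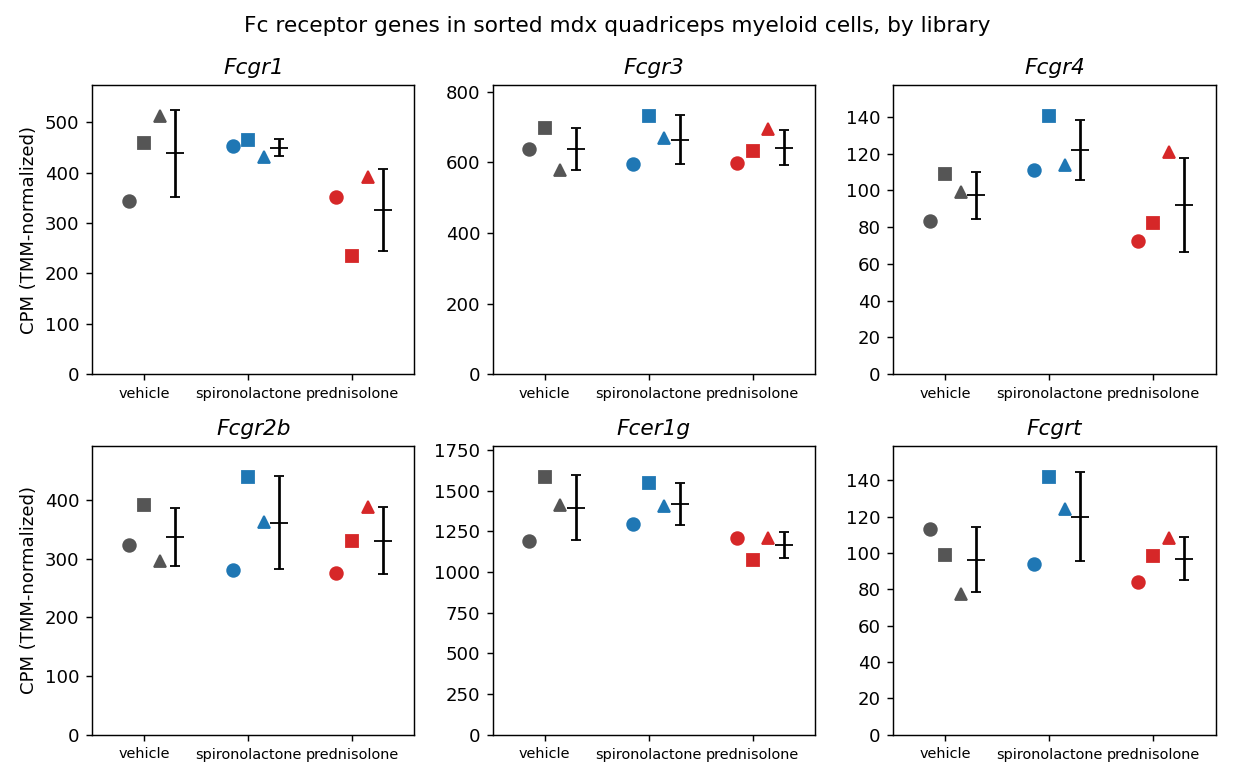
Normalized CPM of each gene from 0, with 1 point per library (circle 1, square 2, triangle 3) and the mean ± SD of the 3 libraries of a group in black. *Fcgr1* and *Fcer1g* are lower in every prednisolone library than in every spironolactone library, and *Fcgr4* is higher in every spironolactone library than in every vehicle library.

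The balance of activating to inhibitory receptors was taken as the summed TPM of *Fcgr1*, *Fcgr3*, and *Fcgr4* over that of *Fcgr2b*. The ratio was 6.69, 6.61, and 8.13 in vehicle, 8.52, 6.39, and 6.92 in spironolactone, and 7.46, 5.98, and 6.51 in prednisolone. Activating transcripts thus exceeded the inhibitory one by 5.98 to 8.52 times in every library, and the groups overlapped. On the log2 scale the means were 2.83 ± 0.17 (SD), 2.85 ± 0.21, and 2.73 ± 0.16, and the exact permutation test of the F statistic over all 280 assignments of libraries to groups gave *P* = 0.668. The pairwise differences, tested two-sided, were -0.10 for prednisolone against vehicle (exact *P* = 0.5), 0.02 for spironolactone against vehicle (exact *P* = 0.8), and 0.13 between the drugs (exact *P* = 0.6). Leaving out 1 library at a time gave -0.19 to -0.01, -0.10 to 0.12, and 0.01 to 0.21, in the same order. With 3 libraries against 3, the smallest exact *P* possible is 0.1, so that no pairwise difference could have passed. The ratio of *Fcgr4* alone to *Fcgr2b* reached that smallest value between the drugs, with a log2 difference of 0.32.

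Across libraries the members did not move as one. *Fcgr2b* and *Fcgr3* followed each other closely (Pearson *r* = 0.97, Spearman rho = 0.92 on log2 CPM, *n* = 9 libraries), and *r* was 0.98 for deviations from the group means and 0.97 without the 2 libraries farthest from the median of *Fcgr2b*. The pair shares the coding stretch shown above, and the part of shared reads in this correlation was not tested. *Fcgr1* followed *Fcer1g* (*r* = 0.84, rho = 0.92, *r* = 0.71 without the 2 farthest libraries, and *r* = 0.68 for deviations from the group means), while its *r* with *Fcgr3* was 0.10 (rho = 0.08). *Fcgrt* went with *Fcgr3* (*r* = 0.82) and *Fcgr2b* (*r* = 0.78), which fell to 0.58 and 0.56 without the 2 farthest libraries. These values describe 15 pairs in the same 9 libraries and carry no test.

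**Figure D4:**
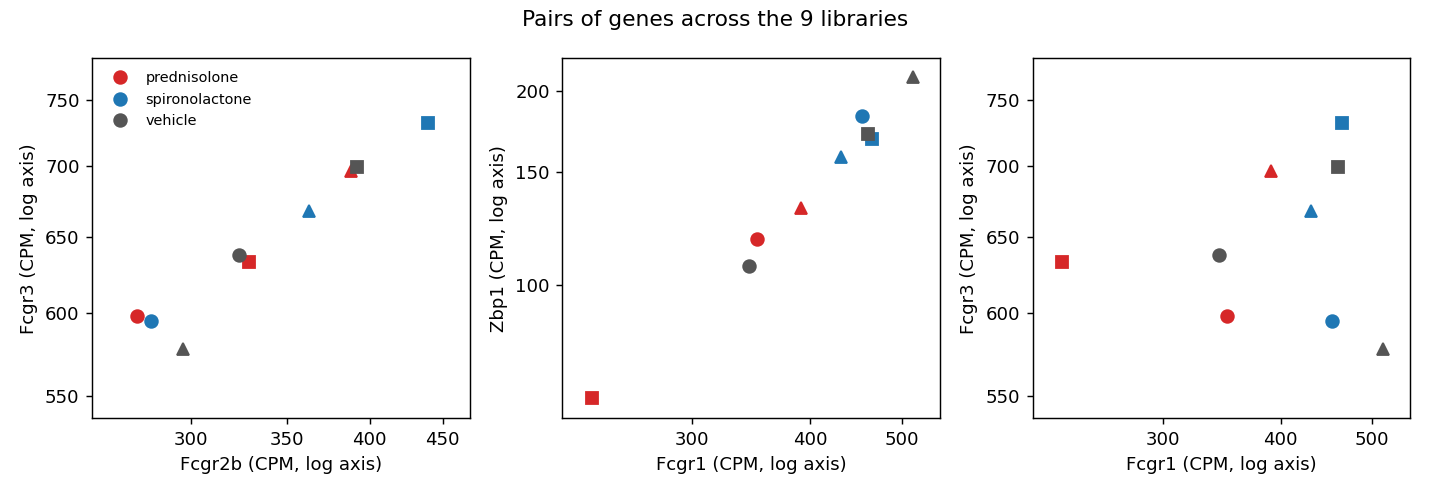
Normalized CPM of 3 pairs of genes on log axes, with 1 point per library, colored by group and shaped by replicate number (circle 1, square 2, triangle 3). *Fcgr2b* and *Fcgr3* rise together (*r* = 0.97), *Fcgr1* rises with *Zbp1* (*r* = 0.993), and *Fcgr1* with *Fcgr3* shows no trend (*r* = 0.10).

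Among 8654 other genes with a mean of at least 10 CPM, those most like *Fcgr1* over the 9 libraries were *Oas1g*, of the oligoadenylate synthetase family (*r* = 0.993), and *Zbp1*, a sensor of nucleic acids in the Z form (*r* = 0.993). *Zbp1* had 107, 172, and 210.3 CPM in vehicle, 183, 169, and 158 in spironolactone, and 118, 66.8, and 132 in prednisolone. Both genes had their lowest value in prednisolone 2 and their highest in vehicle 3, as *Fcgr1* did, and neither passed the test in any comparison (*Zbp1*: -0.63 ± 0.30 for prednisolone against vehicle, adjusted *P* = 0.398). Within groups the correlation with *Fcgr1* was 0.987 for each. The next in likeness were *Sp100*, *Oasl2*, and *Irf7*, at *r* of 0.993 to 0.983.

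The genes most like the other members were of mixed kinds. *Gm2a*, which encodes an activator of ganglioside breakdown in lysosomes, and *Kxd1* were nearest to both *Fcgr2b* (*r* = 0.946 and 0.942) and *Fcgr3* (*r* = 0.962 and 0.969). For *Fcgr4* they were *Tapbpl*, an editor of peptides on MHC class I (*r* = 0.955), and *Arhgap9* (*r* = 0.931). *Fcer1g* was nearest to *Polr2g*, a subunit of RNA polymerase II (*r* = 0.989), and to *Sirpb1a* (*r* = 0.961), while *Fcgrt* was nearest to *Trf*, which encodes transferrin (*r* = 0.959), and *Ppfia4* (*r* = 0.950).

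Downstream of the receptors, a list of 25 signaling genes was tested in full, and it held the kinases *Syk* and *Lyn*, the adaptors *Lat2* and *Grb2*, and the phosphatases *Inpp5d* (SHIP1) and *Ptpn6* (SHP-1) that act for *Fcgr2b* and like receptors. None of the 25 was called by edgeR in any comparison, and 2, 0, and 8 had an unadjusted *P* under 0.05 for prednisolone against vehicle, spironolactone against vehicle, and spironolactone against prednisolone, where 14.2%, 9.29%, and 22.5% of all genes had one. By limma-voom 0 were called in each, and DESeq2 called 1 in the last. Against vehicle, 11 were higher and 14 lower with prednisolone, with a median log2 fold change of -0.02 beside -0.01 over all genes. With spironolactone 6 were higher and 19 lower, with a median of -0.08 beside 0.00. Between the drugs the median was -0.07 beside 0.03, and 10 of the 25 had groups without overlap, 5 in each direction, where 30.3% of all genes had none. The members with the highest TPM were *Ptpn6* and *Rac2*, a GTPase of phagocytes. *Ptpn6* changed by -0.14 ± 0.11 with prednisolone and 0.01 ± 0.11 with spironolactone, and *Rac2* by -0.02 ± 0.12 and 0.00 ± 0.12. *Syk*, the kinase that binds the phosphorylated γ chain, had log2 fold changes of 0.03 ± 0.10 and -0.08 ± 0.10.

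Of 12 other receptors with inhibitory tyrosine motifs that were tested, *Cd300lf*, a receptor for phosphatidylserine and ceramide, was the only one called, by edgeR, DESeq2, and limma-voom alike, and it fell with prednisolone. Of all genes, 1.76% were called for prednisolone against vehicle and 5.17% between the drugs. It had 119, 128, and 144 CPM in vehicle, 117, 127, and 135 in spironolactone, and 95.3, 70.2, and 84.8 in prednisolone, so that the prednisolone libraries stood apart from both other groups. The log2 fold change was -0.65 ± 0.12 against vehicle (adjusted *P* = 0.0128) and 0.60 ± 0.12 for spironolactone against prednisolone (adjusted *P* = 0.0105). The first call was lost without prednisolone 2 (adjusted *P* = 0.0922) or prednisolone 3 (0.0522), and the second without prednisolone 2 (0.0594) or spironolactone 3 (0.0545). The list's median was -0.11 for prednisolone against vehicle, -0.05 for spironolactone against vehicle, and -0.03 between the drugs. *Lilrb4a* and *Sirpa*, its most abundant members by TPM, had -0.25 ± 0.09 (adjusted *P* = 0.406) and 0.01 ± 0.10 with spironolactone against vehicle.

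Among other receptors that pair with the γ chain and its sister adaptors, 7 of 9 genes were tested, and 0 were called by edgeR, DESeq2, or limma-voom with either drug against vehicle, where 1 had an unadjusted *P* under 0.05 with each drug (14.2% of all genes with prednisolone and 9.29% with spironolactone). *Tyrobp*, which encodes the sister adaptor DAP12, was as abundant as *Fcer1g* per length, with 5685 TPM. Its log2 fold change was -0.25 ± 0.14 with prednisolone and 0.13 ± 0.14 with spironolactone against vehicle, and 0.37 ± 0.14 between the drugs (adjusted *P* = 0.125). *Clec4d*, a lectin receptor and next by TPM, had 0.18 ± 0.27 and -0.33 ± 0.27 against vehicle. *Ncr1*, an activating receptor of natural killer cells, was the only one of the 7 called between the drugs (adjusted *P* = 0.027), where 5.17% of all genes were. It was scarce, with 2.25, 1.23, and 1.8 CPM (mean 1.76) in spironolactone and 0.182, 0.275, and 0.683 (mean 0.38) in prednisolone, and leaving out spironolactone 1 or 3 or prednisolone 1 or 2 ended the call (adjusted *P* of 0.0662 to 0.11).

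Of 13 other Fc receptors and relatives, 6 were tested, and 3 were called between the drugs, where 5.17% of all genes were. *Fcrls*, an Fc receptor-like gene of microglia and some macrophages, was higher with spironolactone, with 148, 235, and 223 CPM against 97.4, 92.8, and 125 in prednisolone (0.94 ± 0.19, adjusted *P* = 0.0188). *Fcrl1*, a receptor-like gene of B cells, was also higher (1.23 ± 0.25, adjusted *P* = 0.0155), and *Fcrlb* was lower (-1.20 ± 0.28, adjusted *P* = 0.0286). Leaving out spironolactone 2 ended the calls of *Fcrls* and *Fcrl1* (adjusted *P* = 0.0562 and 0.0556), and *Fcrls* was also lost without spironolactone 3 or prednisolone 1 or 2, with adjusted *P* up to 0.0807. *Fcrlb*, at 2.4 to 9.33 CPM in all libraries, lost its call without spironolactone 1 or 3 or prednisolone 2 or 3 (0.072 to 0.106). Against vehicle none of the 6 was called by edgeR or limma-voom, 3 had an unadjusted *P* under 0.05 with prednisolone (14.2% of all genes) and 2 with spironolactone (9.29%), and DESeq2 called 2 with prednisolone and 0 with spironolactone. *Trim21*, a cytosolic antibody receptor, and *Fcrlb* had the highest TPM among those with an exon length, which *Fcrls* lacked, with -0.32 ± 0.14 and 0.54 ± 0.28 for prednisolone and -0.01 ± 0.14 and -0.66 ± 0.28 for spironolactone. The mast cell IgE receptor chains *Fcer1a* and *Ms4a2* were not tested, with at most 9 and 11 counts in a library.

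For *Fcgrt*, 8 of 9 genes of IgG and albumin handling were tested, and 0 were called in any comparison by edgeR, DESeq2, or limma-voom, with 1 at an unadjusted *P* under 0.05 in each (14.2%, 9.29%, and 22.5% of all genes, in the order above). *B2m*, the light chain of FcRn and of MHC class I, was abundant with 5681 TPM and had log2 fold changes of -0.21 ± 0.14 with prednisolone and 0.04 ± 0.14 with spironolactone. *Lrp1*, an endocytic receptor, had 0.30 ± 0.17 and -0.15 ± 0.17.

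**Figure D5:**
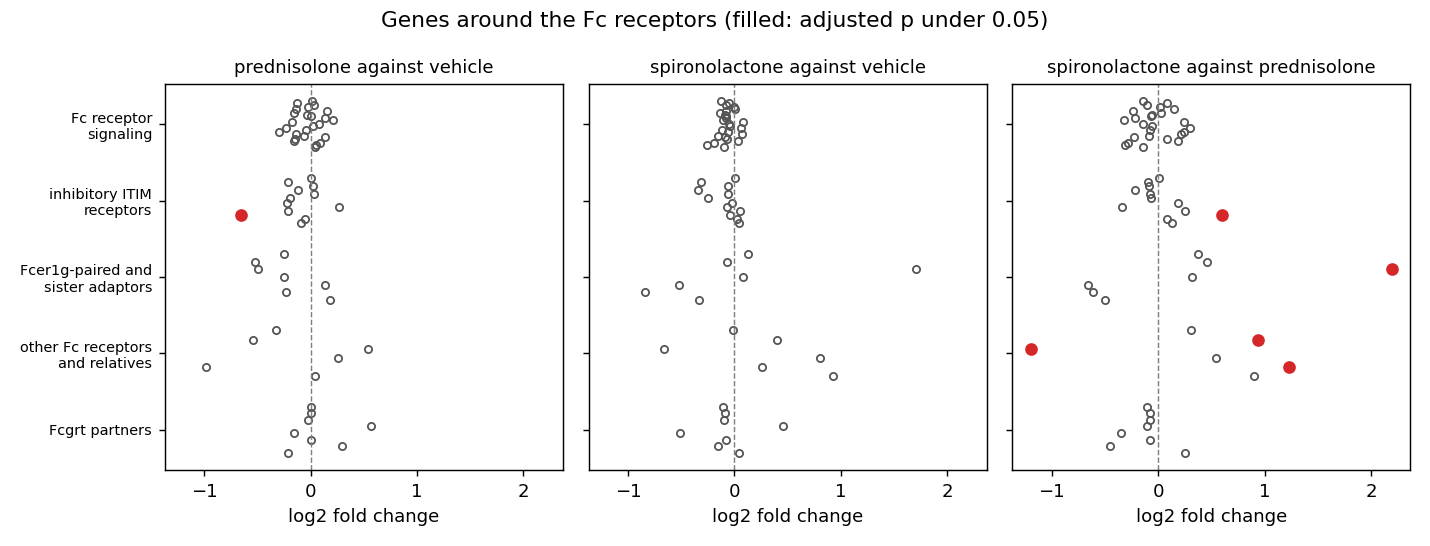
Log2 fold change (horizontal axis) of the genes tested in 5 lists around the Fc receptors, in 3 comparisons, with 1 point per gene. Filled points have an adjusted *P* under 0.05, namely *Cd300lf* with prednisolone against vehicle and *Cd300lf*, *Ncr1*, *Fcrls*, *Fcrl1*, and *Fcrlb* between the drugs, and no signaling gene is among them.

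The libraries held 31469815 to 32943512 counts on genes. The sort markers *Ptprc* (CD45) and *Itgam* (CD11b) were abundant in all of them, at 545 to 659.6 and 978 to 1486 CPM. *Itgam* had 1127, 1264, and 1322 CPM in vehicle, 984, 1170.3, and 978 in spironolactone, and 1453, 1281, and 1486 in prednisolone. Its spironolactone libraries thus all lay below its prednisolone libraries, where 30.3% of all genes had no overlap. Markers of other cells also differed between groups. The summed CPM of natural killer and T cell markers was 27.2 to 29.2 in vehicle, 46.3 to 51.4 in spironolactone, and 16.3 to 26.6 in prednisolone, while *Trac* was at 0 in all libraries. Of the tested markers, 6 of 11 in this list were called higher with spironolactone than with prednisolone, as were 2 of 7 for B cells, 5 of 12 for endothelial cells, and 3 of 9 for eosinophils, mast cells, and basophils, where 5.17% of all genes were called in either direction. By adjusted *P* these were led by *Gzma*, *Cd4*, *Nkg7*, and *Gzmb*, by *Cd79a* and *Cd79b*, by *Pecam1*, *Cdh5*, *Egfl7*, and *Tie1*, and by *Ccr3*, *Il5ra*, and *Siglecf*. B cell markers summed to 53.8 to 64.8 CPM in vehicle, 61.5 to 66.2 in spironolactone, and 40.5 to 55.4 in prednisolone. Endothelial markers, 12 of 12 of which had higher fitted values with spironolactone than with vehicle, summed to 116 to 167, 217 to 309, and 155 to 188. Neutrophil markers summed to 802 to 4985 CPM in vehicle, 1428 to 3708 in spironolactone, and 836 to 1069 in prednisolone, so that every prednisolone library lay below every spironolactone library. The natural killer and T cell, B cell, endothelial, and macrophage sums separated the drugs in the same direction, as *Fcgr1* and *Fcer1g* did. The monocyte and dendritic sums separated them in the opposite direction. Fitted values for spironolactone against prednisolone were evenly split in the macrophage list, with 7 higher and 7 lower (median 0.02 beside 0.03 over all genes). Of the monocyte markers 5 were higher and 6 lower (median -0.13). Of the dendritic markers 6 were higher and 3 lower (median 0.25), against the direction of their sum. The highest neutrophil sums were those of vehicle 3 and spironolactone 3. Of 11 neutrophil markers 7 had groups without overlap between the drugs, where 30.3% of all genes had none. The median log2 fold change was -1.61 for prednisolone against vehicle and 1.62 for spironolactone against prednisolone, and 0 were called by edgeR. Without these 2 libraries, *Fcgr4* was 0.39 for spironolactone against vehicle and *Fcgr1* was -0.30 for prednisolone against vehicle, and 0 members were called. With 2 libraries fewer, the genes called in all fell from 293 to 120 for prednisolone against vehicle and from 859 to 285 between the drugs. *Cd300lf* against vehicle (-0.57) and *Fcrls* (0.86), *Fcrlb* (-1.15), and *Ncr1* (2.17) between the drugs then missed the threshold, with adjusted *P* of 0.0607 to 0.105. Macrophage markers summed to 9597 to 11618 in vehicle, 10840.5 to 11992 in spironolactone, and 9246 to 10166 in prednisolone. Of 14 macrophage markers, 4 were called between the drugs: the complement genes *C1qb* (0.62 ± 0.13) and *C1qc* (0.51 ± 0.13) were higher with spironolactone, and *Lyve1* (-1.60 ± 0.34) and *Cd163* (-0.92 ± 0.23) were lower. Monocyte markers summed to 1990.5 to 3501, 2182 to 2596, and 2829 to 3785. The monocyte list was mixed for prednisolone against vehicle, with 4 of 11 higher and 7 lower and a median of -0.20. *Spn* (CD43) was the only one called there (0.65 ± 0.14, adjusted *P* = 0.0286), where 1.76% of all genes were called. Between the drugs, where 5.17% were, *Ace* was called higher with spironolactone (0.60 ± 0.14, adjusted *P* = 0.0238) and *Spn* lower (-0.55 ± 0.14, adjusted *P* = 0.0344). *Chil3* (0.93 ± 0.38, adjusted *P* = 0.321) and *Vcan* (0.51 ± 0.46, adjusted *P* = 0.693) had positive values, while *Ly6c2* (-0.84 ± 0.47, adjusted *P* = 0.5) and *Plac8* (-1.02 ± 0.51, adjusted *P* = 0.447) had negative ones. The last pair, both genes of inflammatory monocytes, had *r* of 0.949 and 0.947 with *Fcgr1* over the 9 libraries.

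Some of the remaining marker lists differed between groups as well. Eosinophil, mast cell, and basophil markers summed to 114 to 292 CPM in vehicle, 111 to 206 in spironolactone, and 125 to 163 in prednisolone. Of 9 tested, 3 were called lower with prednisolone than with vehicle, namely *Siglecf*, *Ccr3*, and *Il5ra* (adjusted *P* of 0.0377, 0.0128, and 0.0226), where 1.76% of all genes were called. Dendritic cell markers summed to 394 to 418, 349.8 to 538, and 583 to 747, and most of each sum was *Itgax* (CD11c), with mean CPM of 327, 356, and 569. *Itgax* was called higher with prednisolone than with vehicle (0.80 ± 0.15, adjusted *P* = 0.0197) and lower with spironolactone than with prednisolone (-0.68 ± 0.15, adjusted *P* = 0.0238). For prednisolone against vehicle 6 of the 9 dendritic markers were higher and 3 lower, with a median of 0.18, and 4 were higher without overlap and 1 lower, where 19.7% of all genes had no overlap. *Flt3* (0.52 ± 0.13, adjusted *P* = 0.0536), *Zbtb46* (0.57 ± 0.21), and *Cd209a* (0.63 ± 0.22) were the other positive values without overlap, while *Batf3* (-0.45 ± 0.20, adjusted *P* = 0.316), *Clec9a* (-0.22 ± 0.21), and *Ccr7* (-0.04 ± 0.40) were negative. *Batf3* was called higher with spironolactone than with prednisolone (0.93 ± 0.20, adjusted *P* = 0.0187). Skeletal muscle markers summed to 224 to 346 in vehicle and were higher in all libraries of both drugs, at 405 to 672 with spironolactone and 372 to 537 with prednisolone, and *Myh1*, a fast myosin, was called higher with prednisolone than with vehicle, with a mean of 6.55 against 3.12 CPM (adjusted *P* = 0.0239). Fibro-adipogenic markers summed to 646 to 937, 869.6 to 1269, and 824 to 928, and 1 of 10 tested, *Cd34*, was called higher with spironolactone than with prednisolone, where 5.17% of all genes were called. Several of these cells carry Fc receptors, and the part of cell composition in the values above was not tested.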

How the data were processed

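The authors aligned reads to mm39 with HISAT2 2.2.1 and counted them per gene with HTSeq 0.11.3 (versions from the submitters' processing notes), and deposited raw counts for each library. The 3 deposited tables of the authors' comparisons hold their fold changes and p-values and were not used. Lines that name no gene held 17.2% to 21.8% of a library and were left out. Tests used edgeR 4.0.16 (R 4.3.3; filterByExpr, TMM, glmQLFit with robust=TRUE, one fit to all 9 libraries). They were two-sided and adjusted over 16618 genes by Benjamini-Hochberg. Adjusted *P* values are edgeR's unless another tool is named. A standard error is the log2 fold change divided by the square root of its F. DESeq2 1.42.0 and limma-voom (limma 3.58.1) were alternatives. CPM are TMM-normalized, and TPM used summed exon lengths from GENCODE on GRCm39. The ratio was compared with exact permutation tests. The members and lists were chosen with earlier results of these data known. Named genes are the 6 members, up to 4 called genes of each list and comparison (otherwise, for receptor and signaling lists, the most abundant 2 by TPM), and the 2 genes most correlated with each member; *Syk*, *Sp100*, *Oasl2*, *Irf7*, *Chil3*, *Vcan*, *Ly6c2*, *Plac8*, *Flt3*, *Zbtb46*, *Cd209a*, *Clec9a*, and *Ccr7* were added after their values were seen. *Lyn*, *Lat2*, *Grb2*, *Inpp5d*, *Fcer1a*, *Ms4a2*, and *Trac* are named only to describe a list or its counts. Marker lists are given mainly as sums. The scripts were tested on simulated data.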

Additional observations from a re-analysis of the deposited data

How the results depend on the processing

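Log2 fold changes of the 6 genes were recomputed under 18 alternatives, and of 324 values 296 kept their direction and their side of the threshold. Another 24 turned direction, none by more than 0.13 from 0, and 4 gained a call. The 324 include fits without a library of the group that is not compared, in which a direction could hardly turn. *Fcgr1* for prednisolone against vehicle, for example, stayed at -0.430 without spironolactone 1. The number of members called stayed at 0 by DESeq2, limma-voom, edgeR on the 2 groups alone, RLE, library totals, and a filter of 10 counts in every library. Without a low-count filter it was 1 (*Fcgr1*) for prednisolone against vehicle and 2 (*Fcgr1* and *Fcgr4*) for spironolactone against prednisolone. Leaving out 1 library at a time gave 0 to 1 in the latter and 0 in the others. The cause was not tested in either case.

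Directions against vehicle turned with library totals for *Fcgr2b* with prednisolone (0.000), with 10 counts in every library for *Fcgrt* with prednisolone (-0.001), and, in an alternative chosen after seeing the data, without the 2 libraries highest in neutrophil markers for *Fcgr3* (-0.054) and *Fcgrt* (-0.129) with prednisolone and *Fcgr3* with spironolactone (-0.016). Ranges without 1 library that crossed 0 for prednisolone against vehicle were -0.157 to 0.095 for *Fcgr2b*, -0.054 to 0.080 for *Fcgr3*, -0.325 to 0.065 for *Fcgr4*, and -0.129 to 0.137 for *Fcgrt*. For spironolactone against vehicle they were -0.114 to 0.157 for *Fcgr1*, -0.068 to 0.250 for *Fcgr2b*, -0.017 to 0.133 for *Fcgr3*, and -0.081 to 0.123 for *Fcer1g*, and between the drugs -0.041 to 0.277 for *Fcgr2b* and -0.027 to 0.123 for *Fcgr3*. The log2 ratio of activating to inhibitory receptors turned with *Fcgr3* alone (0.042 for prednisolone and -0.027 for spironolactone against vehicle, -0.069 between the drugs). For spironolactone against vehicle it turned as well with *Fcgr1* alone, also chosen after seeing the data (-0.031), and without division by length (-0.009). With *Fcgr1* alone it was -0.411 for prednisolone against vehicle and 0.381 between the drugs (exact *P* = 0.4 for each). Without 1 library the ratio ranged from -0.097 to 0.119 for spironolactone against vehicle. It ranged from -0.189 to -0.006 for prednisolone against vehicle and from 0.006 to 0.213 between the drugs. No ratio had an exact *P* below 0.1, which is the smallest value possible for 3 libraries against 3, so that no pairwise ratio could have passed. Over the 3 groups the lowest exact *P* of the F statistic was 0.186.

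Deviations of same-numbered libraries had *r* from -0.07 to 0.26 over the 500 most variable genes, and those of differently numbered libraries from -0.20 to 0.09. The highest values were same-numbered, for vehicle 3 with spironolactone 3 (0.26) and vehicle 1 with spironolactone 1 (0.12). The numbers are not stated to mark pairs and were not taken as pairs. With a replicate block 0 members were called, *Fcgrt* was -0.001 for prednisolone against vehicle, and the genes called in all went from 293 to 336, from 3 to 8, and from 859 to 1082.

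Counts over all genes moved more. The 293, 3, and 859 genes called became 684, 266, and 1595 by DESeq2 and 1019, 528, and 1940 without a filter, 1598 for the last with edgeR on 2 groups, 0 for the second by limma-voom, and 120, 0, and 285 without the 2 libraries highest in neutrophil markers. Without 1 library they ranged over 69 to 826, 0 to 34, and 232 to 1898. With 3 pools per group, the lack of a call does not exclude differences of the sizes that the intervals given hold.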
